A study of Mus musculus with 4 samples.

Results

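Clock output and secondary loop genes are the transcription factors and partners that the circadian oscillator drives directly and that feed back on it. The set holds 10 genes chosen by symbol for their place in the clock: Dbp, Tef, Hlf, Nfil3, Nr1d1, Nr1d2, Bhlhe40, Bhlhe41, Ciart and Usp2. All 10 of these were found among 30743 named genes of the array, each through 1 feature, and all 10 lay above the expression floor that 18446 genes passed (a mean log2 signal over 5.80). The choice was made with earlier results of these data known. Lungs came from male mice labelled C57BL, in 4 groups: 2 weeks of mainstream cigarette smoke (5 mice, 12 weeks old at the end), clean air for the same time (5 mice, 12 weeks old), 4 weeks of smoke (4 mice, 14 weeks old) and its clean-air control (5 mice, 14 weeks old). The mice were 10 weeks old at the start, and a smoke session of 1 h fell between 10 and 11 AM on 5 days of each week. The samples of a group were mixed, so each group was 1 pool on 1 array, and precision is limited by there being 4 arrays. The labels do not give the hour at which the lungs were taken. If that hour differed between the pools, that difference and the exposure cannot be told apart for genes that follow the time of day.

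In the mammalian clock, the activators BMAL1 (gene Arntl) and CLOCK or NPAS2 bind E-box sequences and switch on the Period and Cryptochrome genes, whose proteins then repress them. The same E-boxes drive the nuclear receptors REV-ERB alpha and beta, which repress Arntl through ROR elements, the sites they contest with the ROR activators; this is the secondary loop. E-boxes also drive the PAR bZIP activators DBP, TEF and HLF, which bind D-boxes in competition with the repressor NFIL3 and so carry the rhythm to output genes. The lung has its own rhythm of this kind, and glucocorticoids and feeding time are known to adjust such clocks.

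The promoter letters are shown first, since the members differ in whether they hold a clock element near the start of transcription, and in which. RefSeq windows of assembly GRCm38.p6, 250 bases before to 50 bases after each start, were held for 9 of the 10 members, with a further window for Tef; Bhlhe40 had none in the table used. They were searched on both strands for the E-box CACGTG, the D-box spelled TTATGTAA or TTACGTAA, and the core TAGGTCA of the ROR element; no hits of these motifs overlapped. In the windows printed here the letters of a hit are in capitals.
Ciart (chr3:95882179-95882478, minus strand): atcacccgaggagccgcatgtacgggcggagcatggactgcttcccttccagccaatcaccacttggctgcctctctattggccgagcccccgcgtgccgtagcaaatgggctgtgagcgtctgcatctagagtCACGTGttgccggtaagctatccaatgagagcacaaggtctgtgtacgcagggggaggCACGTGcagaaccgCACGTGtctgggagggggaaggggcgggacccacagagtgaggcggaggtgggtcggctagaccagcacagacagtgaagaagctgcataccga
Bhlhe41 (chr6:145865371-145865670, minus strand): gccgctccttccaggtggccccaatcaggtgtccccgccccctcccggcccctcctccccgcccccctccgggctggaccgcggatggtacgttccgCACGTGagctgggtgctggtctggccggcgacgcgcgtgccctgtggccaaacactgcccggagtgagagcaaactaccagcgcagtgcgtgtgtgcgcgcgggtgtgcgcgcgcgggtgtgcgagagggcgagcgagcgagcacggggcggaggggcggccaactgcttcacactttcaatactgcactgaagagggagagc
Tef (chr15:81811164-81811463, plus strand): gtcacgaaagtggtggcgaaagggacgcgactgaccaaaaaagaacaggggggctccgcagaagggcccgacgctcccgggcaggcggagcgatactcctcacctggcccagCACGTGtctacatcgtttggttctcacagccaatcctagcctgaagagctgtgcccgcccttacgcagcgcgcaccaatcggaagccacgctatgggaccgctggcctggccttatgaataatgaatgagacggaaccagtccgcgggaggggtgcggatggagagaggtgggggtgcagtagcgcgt
Nfil3 (chr13:52980990-52981289, minus strand): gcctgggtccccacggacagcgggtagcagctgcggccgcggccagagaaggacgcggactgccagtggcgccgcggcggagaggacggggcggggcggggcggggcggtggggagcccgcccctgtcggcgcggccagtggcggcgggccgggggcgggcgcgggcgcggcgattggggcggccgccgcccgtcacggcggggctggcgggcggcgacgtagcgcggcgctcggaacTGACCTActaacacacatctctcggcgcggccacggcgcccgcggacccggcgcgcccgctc
Ciart held 3 E-boxes, starting 116, 58 and 44 bases before the start. Bhlhe41 held 1 at 153 bases before it, and Tef held 1 in each of its windows, at 138 bases in the one shown. Nfil3 held the ROR element core on the opposite strand, as TGACCTA, 12 bases before the start. An E-box was in 3 of the 9 members with a window, against 7.15% of all 32851 windows of this length, and 3 or more were in 0.0883% of them. The ROR element core was in 2.61% of windows and the D-box in 1.06%, and 0 of the 9 members held a D-box. The windows of Dbp, Hlf, Nr1d1, Nr1d2 and Usp2 held none of these motifs. Sites outside the windows were not searched. A match of letters is a description and not a shown binding site.

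The comparison of smoke with clean air asked how these genes stood after 2 and after 4 weeks. Dbp and Bhlhe41 rose, by about 2-fold each, and 8 genes did not pass the test. In 7 genes both smoke pools lay above both control pools: Dbp, Tef, Hlf, Nr1d1, Nr1d2, Bhlhe40 and Bhlhe41. Nfil3 was the only member with both smoke pools below both control pools, while the groups overlapped for Ciart and Usp2. Over all 18446 genes, both smoke pools were above both control pools in 15.7% and below them in 16.7%. The test was limma with smoke and duration in the model over the 4 arrays, with Benjamini-Hochberg adjusted p-values across the 18446 genes; 1.12% of genes rose and 0.314% fell at an adjusted p under 0.05. An effect is the log2 difference of the smoke pools from the control pools across durations, and ± gives its standard error (2 smoke and 2 control pools). A gene's own part of that error is how far its smoke difference varied between the durations, which may in part be technical. This part has 1 degree of freedom, and 5.40 more come from a prior over all genes. The error is thus drawn largely from the spread of all genes. Fitted over protein-coding genes alone, where 4.54% of 12694 genes rose and 2.58% fell, 6 of the 10 passed. There Nr1d1 (adjusted p = 0.00706), Bhlhe40 (0.0109) and Nr1d2 (0.022) also rose and Nfil3 fell (0.0149). After median centring 0 of the 10 passed, beside 8 of all 18446 genes. After cyclic loess 0 of the 10 passed, beside 33 of all genes, where 264 passed as deposited. A difference at 1 duration compares 2 pools and has no replicate check or p-value. Folds take the deposited linear values as powers of 2; had base e been used to make them, a log2 difference would shrink to 0.69 of the value given. A pool of whole lung does not tell fewer cells of a type from less RNA per cell.

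**Figure D1:**
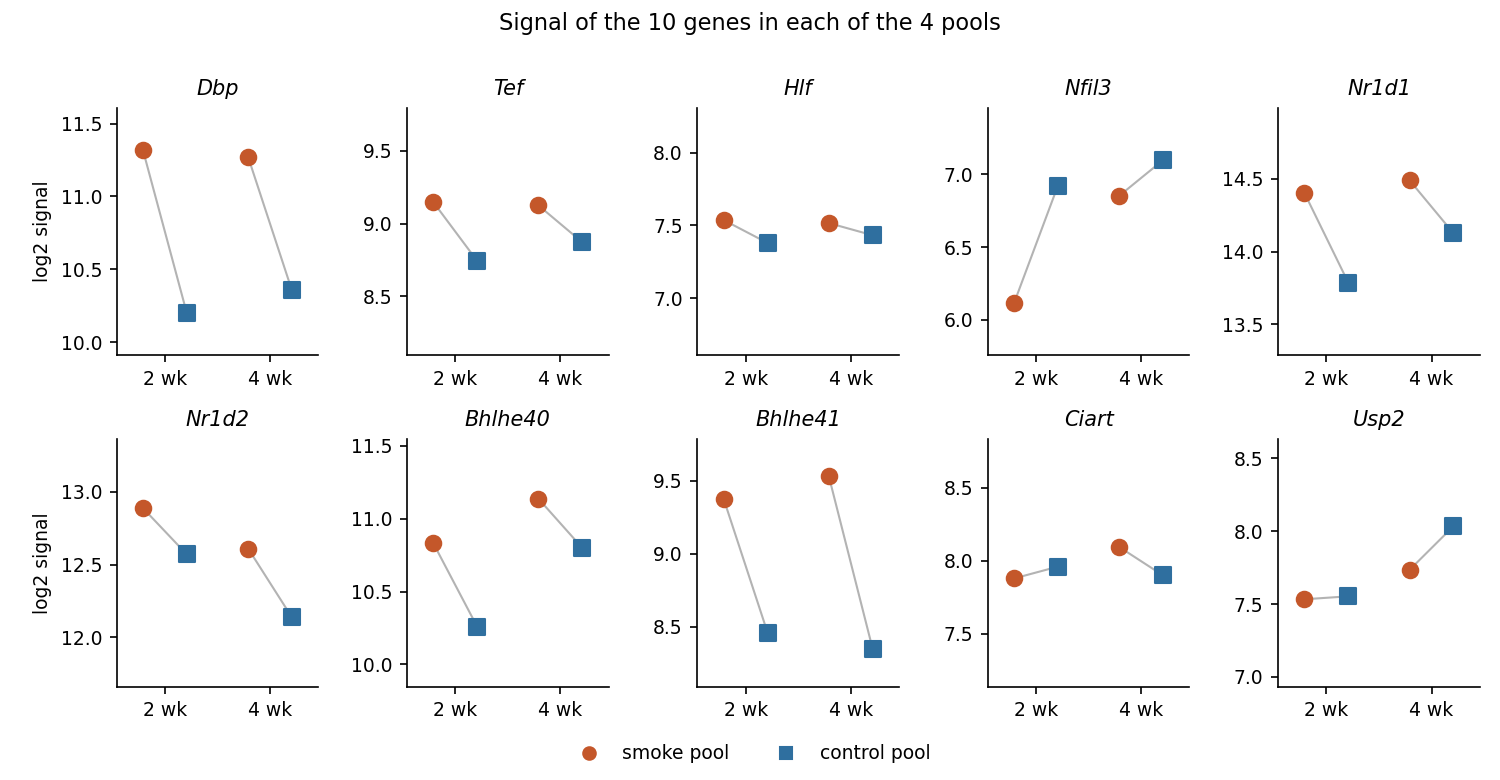
Log2 signal of each of the 10 genes (vertical axis, all panels spanning the same number of log2 units) in the smoke pool (orange circle) and the control pool (blue square) at 2 and 4 weeks, 1 array per point, with grey lines joining the pools of a duration. Dbp and Bhlhe41 stand about 1 log2 unit higher in smoke at both durations, Nfil3 is lower in smoke at both, and the direction of Ciart is not the same at 2 and 4 weeks.

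Among the PAR bZIP activators, the size of the smoke difference was graded from Dbp to Tef to Hlf at both durations. Dbp, the albumin D-box binding protein and the member of the family with the strongest daily rhythm in most tissues, had a log2 signal of 11.32 in the 2-week smoke pool and 10.20 in the 2-week control pool. At 4 weeks it had 11.27 in the smoke pool and 10.36 in the control pool. The 2 smoke pools were thus close to each other, the 2 control pools were too, and 0.915 log2 units separated the groups. Dbp was 2.17-fold higher in smoke at 2 weeks and 1.89-fold higher at 4 weeks. Over both durations it rose by 1.02 ± 0.109 (adjusted p = 0.0132), a mean of 2.02-fold, or 1.63-fold if the base was e. This call did not hold after median centring of the arrays (1.01, adjusted p = 0.0833) or cyclic loess (1.06, adjusted p = 0.0556), and it did in a cyclic loess over pairs of arrays (1.06, adjusted p = 0.0266). Of all genes 264 passed as deposited, 8 after median centring, 33 after cyclic loess and 124 after cyclic loess over pairs of arrays. With any 1 of the 4 pools left out, in fits without duration, Dbp was at 0.94 to 1.09 and did not pass; of all genes 6 passed without the 2-week control pool, 34 without the 4-week control pool and 0 without either smoke pool.

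Tef, the thyrotroph embryonic factor, had 9.15 in the 2-week smoke pool against 8.74 in its control, and 9.12 in the 4-week smoke pool against 8.87 in its control. Both smoke pools were higher, by 1.32-fold and 1.19-fold, and the effect of 0.33 ± 0.105 did not pass (adjusted p = 0.287). Hlf, the hepatic leukemia factor, had 7.54 in the 2-week smoke pool and 7.38 in the 2-week control pool. At 4 weeks, Hlf had 7.52 in the smoke pool and 7.43 in the control pool. Its groups were 0.084 log2 units apart, and its effect of 0.12 ± 0.102 had a 95% interval of -0.13 to 0.37 (adjusted p = 0.778). The smoke difference of Dbp exceeded that of Tef by 0.71 at 2 weeks and 0.66 at 4 weeks, and that of Hlf by 0.96 and 0.83, on the log2 scale; these gaps were not tested.

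Nfil3, the bZIP repressor that competes for D-boxes and is also needed for natural killer and innate lymphoid cells, stood on the other side. It had 6.12 in the 2-week smoke pool against 6.92 in its control, and 6.85 in the 4-week smoke pool against 7.10 in its control. Most of its difference was therefore at 2 weeks, where it was 1.75-fold lower in smoke, against 1.19-fold lower at 4 weeks, and the 2-week smoke value was the member value nearest the floor. Over both durations the effect was -0.52 ± 0.150 (adjusted p = 0.228), with a 95% interval of -0.89 to -0.16. Without the 2-week smoke pool it was -0.16, in a fit without duration. The gap between Dbp and Nfil3 widened with smoke by 1.92 log2 units at 2 weeks and 1.16 at 4 weeks, and differed by -0.020 between the control pools (4 weeks minus 2 weeks). None of the 6 markers of T and natural killer cells passed. Their mean log2 signal was 7.59 and 7.67 in the 2-week and 4-week smoke pools, against 7.33 and 7.58 in the controls. These means do not stand for each marker. Smoke minus control was above 0 in 5 of the 6 at 2 weeks, with Cd3e at 0.94. At 4 weeks it was above 0 in 4, with Nkg7 at -0.30 and Gzma at -0.34. The part of T and natural killer cells in the Nfil3 values was not tested.

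The REV-ERB receptors, heme-binding repressors that close the secondary loop, were both higher in the smoke pools without passing the test. Nr1d1 (REV-ERB alpha) had 14.40 in the 2-week smoke pool against 13.79 in its control, and 14.49 in the 4-week smoke pool against 14.13 in its control. That is 1.53-fold and 1.29-fold higher, with an effect of 0.49 ± 0.113 (adjusted p = 0.136) and a 95% interval of 0.22 to 0.76. Without the 2-week control pool the effect was 0.32, in a fit without duration, where the shift between durations enters. Nr1d2 (REV-ERB beta) had 12.89 in the 2-week smoke pool against 12.57 in its control, and 12.61 in the 4-week smoke pool against 12.14 in its control. Its differences of 1.25-fold and 1.39-fold gave an effect of 0.39 ± 0.106 (adjusted p = 0.199). In such fits without duration, the Nr1d2 effect was 0.18 without the 4-week and 0.61 without the 2-week control pool. The 2 receptors differed in their course between the control pools: at 4 weeks minus 2 weeks Nr1d1 was at 0.34 and Nr1d2 at -0.43, so for Nr1d2 the shift between the control pools was as large as its smoke effect.

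The DEC repressors bind the same E-boxes as the activators and dampen their targets. Bhlhe41 (DEC2) had 9.37 in the 2-week smoke pool against 8.46 in its control, and 9.53 in the 4-week smoke pool against 8.35 in its control. Its groups were 0.915 log2 units apart, as for Dbp, but here the larger difference was at 4 weeks, 2.27-fold against 1.89-fold at 2 weeks. Bhlhe41 rose by 1.05 ± 0.114 (adjusted p = 0.0142), a mean of 2.07-fold, or 1.66-fold with base e. The call was lost after median centring (1.04 ± 0.114, adjusted p = 0.104) and cyclic loess (1.06 ± 0.116, adjusted p = 0.0856), not in a cyclic loess over pairs of arrays (1.07, adjusted p = 0.0468). Its effect and error thus moved little, while of all genes 8 passed after median centring and 33 after cyclic loess, against 264 as deposited. With any 1 pool left out, in fits without duration, Bhlhe41 was at 0.97 to 1.13. Bhlhe40 (DEC1) had 10.83 in the 2-week smoke pool against 10.26 in its control, and 11.14 in the 4-week smoke pool against 10.80 in its control. It was 1.49-fold and 1.26-fold higher, but the control pools themselves differed by 1.45-fold, with the later one higher. Its effect of 0.45 ± 0.111 did not pass (adjusted p = 0.161). In fits without duration, where the control shift enters, the effect was 0.18 without the 2-week and 0.72 without the 4-week control pool.

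Both DEC genes are also expressed in alveolar macrophages, where they are known to sustain self-renewal, so markers of these cells are given beside them. Of 10 alveolar macrophage markers, 5 rose, 0 fell and 5 did not pass. The markers that rose were the scavenger receptor Marco (2.70 ± 0.214), the lysosomal protein Cd68 (2.28 ± 0.108), the proton pump subunit Atp6v0d2 (1.96 ± 0.114), the integrin Itgax (1.93 ± 0.134) and Plet1 (1.23 ± 0.101). Of those that did not pass, the chitinase-like Chil3 was at 1.02 ± 0.169 (adjusted p = 0.0501), Car4 at 0.26, Krt79 at -0.32, with both smoke pools below both control pools, and Cidec at -0.42. The lectin Siglecf, which defines these cells in the mouse, was at -0.0025 ± 0.114. The summed linear signal of the 10 was 151020 and 234340 in the 2-week and 4-week smoke pools, against 81024 and 88733 in the controls, and most of it was Chil3 (91005 and 151340 in smoke, against 56830 and 58884 in the controls), so the sum is not a measure of the whole list. The part of these cells in the Bhlhe41 and Bhlhe40 values was not tested.

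In Ciart and Usp2 the smoke and control pools overlapped. Ciart (CHRONO), a repressor of the BMAL1 and CLOCK pair, had 7.88 in the 2-week smoke pool against 7.96 in its control, and 8.09 in the 4-week smoke pool against 7.90 in its control. The smoke pools were thus the lowest and the highest of the 4. Its effect was 0.057 ± 0.115 with a 95% interval of -0.22 to 0.33 (adjusted p = 0.932). Usp2, a deubiquitinase that acts on clock proteins, had 7.53 in the 2-week smoke pool against 7.55 in its control, and 7.73 in the 4-week smoke pool against 8.03 in its control. The lowest of the 4 was a smoke pool and the highest a control pool, and the groups overlapped. Its effect was -0.16 ± 0.115 with a 95% interval of -0.44 to 0.12 (adjusted p = 0.722). The smoke difference of Dbp exceeded that of Ciart by 1.20 at 2 weeks and 0.72 at 4 weeks, and that of Usp2 by 1.14 and 1.21, on the log2 scale and without a test.

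**Figure D2:**
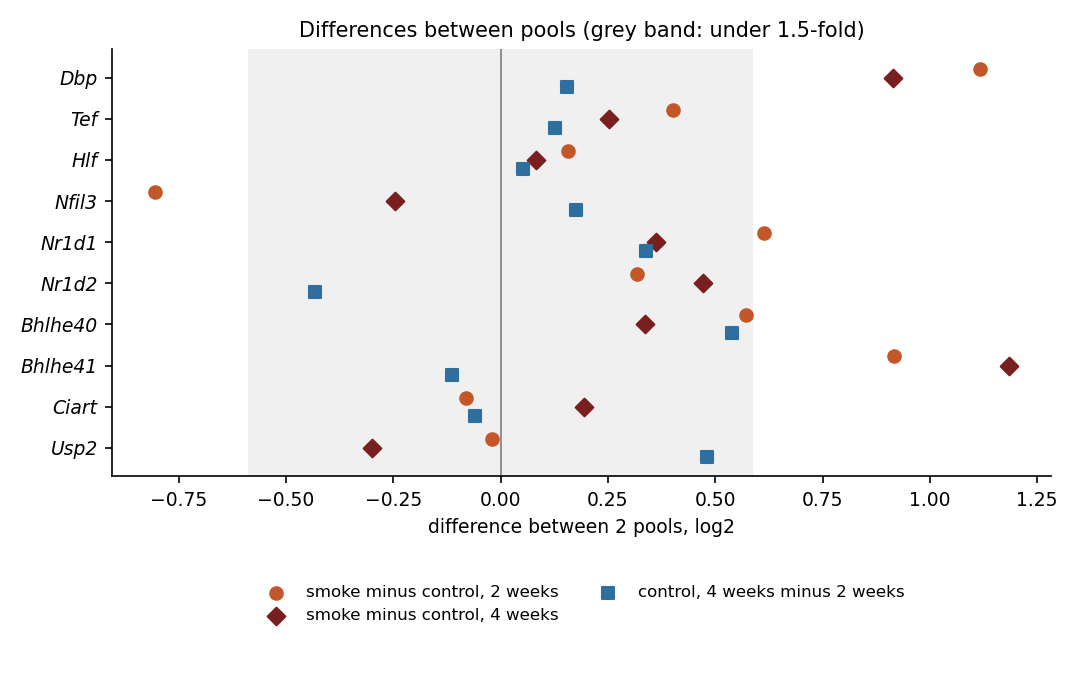
Differences between 2 pools on the log2 scale (horizontal axis) for each gene: smoke minus control at 2 weeks (orange circles), at 4 weeks (dark red diamonds) and the 4-week minus the 2-week control pool (blue squares), with differences under 1.5-fold in the grey band. Dbp and Bhlhe41 lie outside the band at both durations, Nr1d1 and Nfil3 at 2 weeks, and none of the control differences does.

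Counted by size at each duration, 3 of the 10 genes (Dbp, Bhlhe41 and Nr1d1) were at least 1.5-fold higher in smoke at 2 weeks and 1 (Nfil3) was at least 1.5-fold lower, where 1.83% of all genes were higher and 1.24% lower by as much. Nr1d1 at 1.53-fold lay just past that size and Bhlhe40 at 1.49-fold just short of it. At 4 weeks 2 of 10 were at least 1.5-fold higher (Dbp and Bhlhe41) and 0 lower, beside 2.55% and 1.51% of all genes. The control pools differed by that much in 0 of 10, beside 1.85% of all genes that were higher and 2.26% that were lower at 4 weeks. The 4-week and the 2-week smoke pools differed by that much in 1 of 10, Nfil3, which was 1.66-fold higher at 4 weeks, beside 1.37% of all genes higher and 1.77% lower. The median difference of the 10 was 0.36 at 2 weeks, 0.30 at 4 weeks and 0.14 between the control pools, where over all genes the medians were 0.0049, -0.016 and 0.0078. With base e the 2-week count would be 2 and not 4, as Nr1d1 and Nfil3 would fall short of 1.5-fold. The sign of the difference of each gene was the same as deposited, after median centring and after cyclic loess, at both durations.

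The core oscillator was set beside its outputs. Of 13 core clock genes tested, 1 rose, 2 fell and 10 did not pass. The activators were lower in smoke than in the control of the same duration. Arntl, whose loss alone stops the rhythm in mice, fell by 1.21 ± 0.113 (adjusted p = 0.00751), Npas2 was at -0.85 ± 0.156 (adjusted p = 0.0692) and Clock at -0.30 ± 0.111 (adjusted p = 0.369). Among the repressors Per3 rose by 0.63 ± 0.101 (adjusted p = 0.0468), Per1 fell by 0.70 ± 0.101 (adjusted p = 0.0328), and Per2 (0.35 ± 0.103), Cry1 (0.072 ± 0.102) and Cry2 (-0.043 ± 0.114) did not pass. The groups of Per1 overlapped, since its 4-week smoke pool (11.35) lay above its 2-week control pool (11.28). At 4 weeks Per1 was higher than at 2 weeks by 0.76 in the control pools and 0.78 in the smoke pools. Its smoke difference was -0.71 at 2 weeks and -0.69 at 4 weeks. With 1 pool left out, in fits without duration where that shift enters, the Per1 effect was -0.31 to -1.09. The ROR activator Rora was at -0.38 ± 0.137, and the kinases Csnk1d (-0.16) and Csnk1e (-0.24) and the ubiquitin ligase subunits Btrc (-0.097) and Fbxl21 (-0.0099) did not pass either. The median effect of the 13 genes was -0.16, against 0.36 for the 10 output and loop genes and -0.0035 for all genes. After median centring 0 of the 13 passed, beside 8 of all genes, and after cyclic loess 0 passed, beside 33 of all genes. After cyclic loess over pairs of arrays 1 of the 13 fell and 0 rose, beside 124 of all genes that passed. As deposited 264 of all genes passed, so the lower counts are not particular to the core clock genes. With any 1 pool left out, in fits without duration, Arntl was at -1.10 to -1.32 and Per3 at 0.56 to 0.69. The Per3 call was also lost with no floor (adjusted p = 0.0676), and Npas2 fell with a floor at the 60th percentile (adjusted p = 0.0178).

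**Figure D3:**
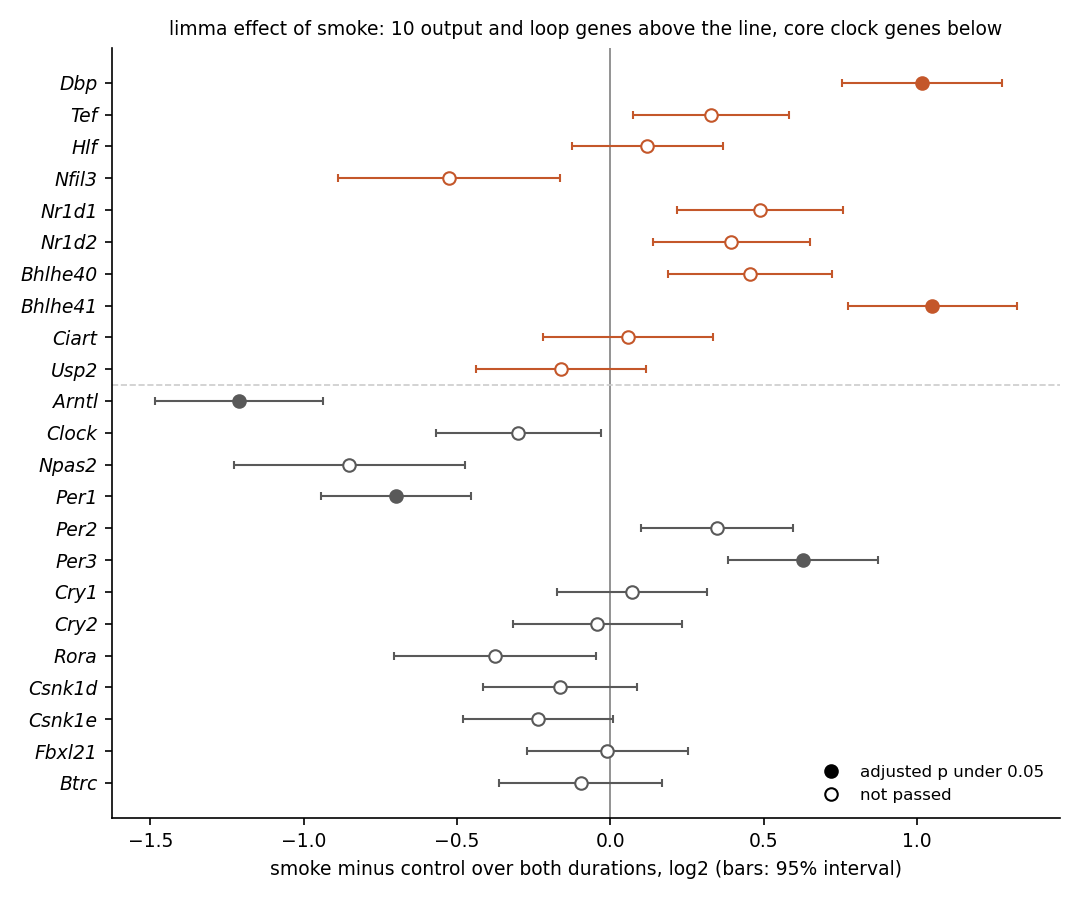
Effect of smoke over both durations from limma, log2 smoke minus control (horizontal axis), with 95% intervals as bars, for the 10 output and loop genes (orange, above the dashed line) and 13 core clock genes (grey, below it); filled circles passed at an adjusted p under 0.05. Dbp, Bhlhe41 and Per3 are filled on the higher side, Arntl and Per1 on the lower side.

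The same letters were searched in the core activators and repressors, of which 7 had a window; an E-box was in 2, a D-box in 1 and the ROR element core in 1, and the stretch around each is shown. Per1 held an E-box 166 bases and Cry1 one 60 bases before the start. Per3 held 2 D-boxes, starting 205 and 158 bases before the start, and 1 Arntl window held the ROR element core 31 bases into the transcript.
Per3 (chr4:151044786-151044900, minus strand): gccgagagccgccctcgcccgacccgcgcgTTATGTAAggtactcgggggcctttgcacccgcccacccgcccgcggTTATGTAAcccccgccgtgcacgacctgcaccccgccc
Arntl (chr7:113207511-113207560, plus strand): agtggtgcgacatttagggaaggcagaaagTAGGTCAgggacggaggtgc
Per1 (chr11:69098753-69098820, plus strand): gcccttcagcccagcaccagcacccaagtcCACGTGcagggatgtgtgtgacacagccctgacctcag
Cry1 (chr10:85185077-85185144, minus strand): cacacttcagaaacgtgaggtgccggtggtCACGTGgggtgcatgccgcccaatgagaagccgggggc
The gap between Nr1d1 and Arntl widened with smoke by 1.70 log2 units at 2 weeks and 1.70 at 4 weeks, and that between Nr1d2 and Arntl by 1.399 and 1.81. Between the control pools these gaps moved by 0.30 and -0.47.

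Genes that other work reports downstream of these factors were counted next. Of 8 tested genes reported as repressed by the REV-ERB receptors, 1 fell (Arntl), 0 rose and 7 did not pass, with a median effect of -0.41. Both smoke pools were below both control pools in 5 of them and above in 3, beside 16.7% and 15.7% of all genes. Some of these gaps were small, at 0.031 log2 units for Cry1 and 0.070 for Nfil3. Of the 8, Arntl, Npas2, Clock, Cry1 and Nfil3 are the clock genes described above. Of those reported in macrophages, the chemokine Ccl2 was at 0.81 ± 0.134 (adjusted p = 0.0503), the chemokine receptor Cx3cr1 at 0.47 ± 0.186 and the gelatinase Mmp9 at -0.66 ± 0.149, and the cytokine Il6 was below the floor. Of 4 tested genes reported as PAR bZIP targets in liver, 0 passed: the heme synthesis enzyme Alas1 was at 0.19 ± 0.101, the pyridoxal kinase Pdxk at 0.16 ± 0.101, the cytochrome P450 Cyp2b10 at -0.10 ± 0.101 and the drug transporter Abcb1a at -0.26 ± 0.101. Nr1i3 was below the floor and Por had no feature naming it alone. Of 6 genes with a daily rhythm in many tissues, 0 passed, with a median effect of -0.046; the cell cycle kinase Wee1 was at 0.28 ± 0.102, the tetraspanin Tspan4 at 0.40 ± 0.122, the NAD synthesis enzyme Nampt at -0.073 ± 0.101, the glucocorticoid-induced Tsc22d3 at -0.43 ± 0.102, the oxygenase Fmo2 at -0.24 ± 0.103 and Lonrf3 at -0.019 ± 0.102.

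Transcripts that respond to signals known to reset clocks were counted too. Of 10 glucocorticoid response genes, 4 fell, 0 rose and 6 did not pass; those that fell were Pdk4 (-1.002 ± 0.115), which spares glucose, the Kruppel-like factor Klf9 (-0.77 ± 0.125), Cdkn1a (-0.70 ± 0.110), a cell cycle inhibitor, and Per1. The smoke and control pools overlapped in 7 of the 10, Cdkn1a and Per1 among them. In the other 3 both smoke pools were below both control pools. Over all genes both smoke pools were below both control pools in 16.7% and above them in 15.7%, so most genes overlapped. Between the control pools, 4 weeks minus 2 weeks, the list had a median difference of 0.73, and Fkbp5, a chaperone of the receptor, was at 0.90. Of the other members of the list, the metallothioneins Mt1 and Mt2 were at 0.24 and 0.48, Zbtb16 at -0.25, Sgk1 at -0.15, Fkbp5 at -0.16 and Tsc22d3 at -0.43. All 5 tested immediate early genes fell, with a median effect of -1.65: Nr4a1 (-3.01), Fos (-2.46), Egr1 (-1.65), Ier2 (-1.03) and Dusp1 (-0.73). This list also differed between the control pools, with a median of -0.71 (4 weeks minus 2 weeks) and Nr4a1 at -1.56. The part of either response in the clock gene values was not tested.

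Likeness to Dbp was measured as the Euclidean distance over 3 log2 differences (smoke at 2 weeks, smoke at 4 weeks and the control pools), among 12693 other protein-coding genes. The 5 nearest genes outside the set were Cyp1b1, a cytochrome P450 (distance 0.127), Cxcl5, a chemokine for neutrophils (0.136), Tlr7, a sensor of RNA (0.153), Bcl2a1d, of the BCL2 family (0.167), and Tfec, a transcription factor (0.195). Cyp1b1 had 9.12 in the 2-week smoke pool against 8.07 in its control, and 9.01 in the 4-week smoke pool against 8.12 in its control, so its pools stood in the same order and at much the same distances as those of Dbp. Of the set itself, Bhlhe41 ranked 39 (0.430), Nr1d1 243 (0.770), Bhlhe40 349 (0.883), Tef 486 (0.975), Nr1d2 731 (1.09), Hlf 1895 (1.27), Ciart 4633 (1.41), Usp2 10960 (1.70) and Nfil3 12573 (2.25), and Per3 ranked 143 (0.621) and Arntl 12677 (3.15). With 4 arrays, many genes can share such a course.

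**Figure D4:**
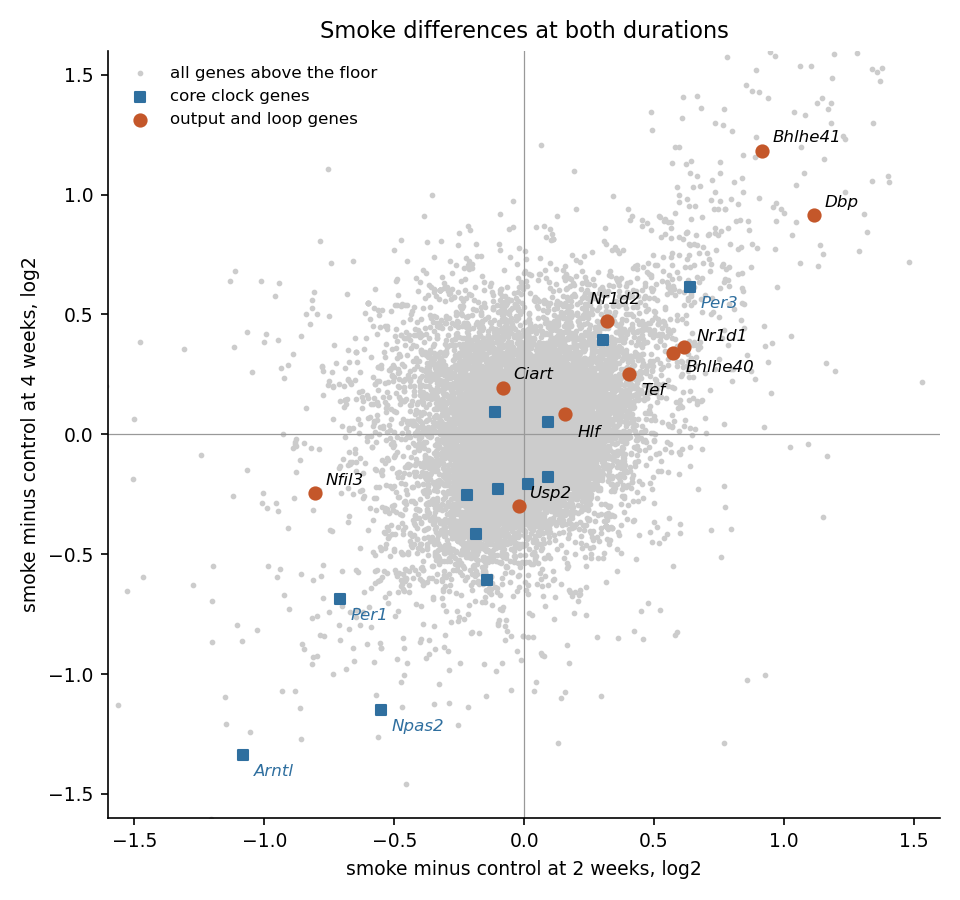
Smoke minus control at 2 weeks (horizontal axis) and at 4 weeks (vertical axis), log2, for all genes above the floor (grey), 13 core clock genes (blue squares) and the 10 output and loop genes (orange circles); 73 genes lie outside the axes. Dbp and Bhlhe41 are far to the upper right, opposite Arntl at the lower left, and Nfil3 lies to the left near the horizontal line.

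Other lung cell markers gave the setting for these values. Of 5 tested alveolar and airway epithelial genes 0 passed, with effects of -0.044 for Ager to 0.12 for Sftpa1, and their mean log2 signal was 18.11 and 18.20 in the 2-week and 4-week smoke pools, against 18.07 and 18.18 in the controls; all 5 were high in every pool. Of 5 endothelial markers the tight junction gene Cldn5 fell (-0.81 ± 0.102) and 4 did not pass. None of 4 tested neutrophil, 4 B cell, 4 cardiac muscle or 3 adipocyte markers passed; their mean log2 signals are given by duration. At 2 weeks they were 8.36 in smoke and 8.49 in control for neutrophils, 8.62 and 8.50 for B cells, 10.61 and 10.65 for cardiac muscle, and 6.25 and 6.07 for adipocytes. At 4 weeks they were 8.12 in smoke and 9.29 in control for neutrophils, 8.16 and 8.52 for B cells, 10.45 and 11.25 for cardiac muscle, and 6.20 and 6.20 for adipocytes. The neutrophil and cardiac means do not stand for each marker. At 4 weeks smoke minus control was -1.66 for S100a8, -2.05 for S100a9, -0.90 for Retnlg and -0.039 for Ly6g. Between the control pools, 4 weeks minus 2 weeks, S100a8 was at 1.54 and S100a9 at 0.999. Of the cardiac markers, Nppa had a smoke minus control of 1.04 at 2 weeks and -1.62 at 4 weeks. Myh6, Myl7 and Tnnt2 were lower in smoke at both durations.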

How the data were processed

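RNA of 4 lung pools was measured on Affymetrix arrays. The authors deposited intensities (linear values) and, per the submitters' processing notes, made them by RMA with Expression Console 1.4.1 of Affymetrix; no source used here gives a genome build. RMA makes the arrays' distributions alike, so a shift of all genes is removed. Between 541 and 581 features per array exceed 65535, the limit of a 16-bit scan, and the base of the linear values is unknown. Log2 was taken (the tests had been planned for log2 values). Of 65956 features, 30604 had 1 symbol; 612 of the 2146 with several were kept because all their symbols belong to 1 Entrez gene in RefSeq (GRCm38.p6), Ciart among them, which the annotation also lists as Gm129. The feature with the highest mean stood for a gene, and genes above the 40th percentile (5.80) were kept. limma 3.58.1 in R 4.3.3 fitted smoke and duration over all 4 arrays, with 1 residual degree of freedom and 5.40 from the prior, Benjamini-Hochberg adjusted over 18446 genes. A run on simulated data with independent noise checked only that planted effects came back on average. It does not check the calls made in these data. P-values rest on how far smoke differences varied between the durations in these 4 arrays, largely over all genes, and not on replicate pools. The pathway genes, markers and the 5 genes nearest to Dbp were named by lists and a rule, and members and lists were chosen with earlier results of these data known. Median signals were 58.8 to 61.7. Alternatives are in the closing section.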

Additional observations from a re-analysis of the deposited data

Results flagged for a closer look

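Ciart was the only member whose smoke difference had opposite signs at the 2 durations: it was at -0.081 (log2 smoke minus control) at 2 weeks and 0.19 at 4 weeks. Each value compares 1 smoke pool with 1 control pool, and the difference between durations was not tested.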

How the results depend on the processing

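Of the 10 members, 2 passed limma as reported, and 2 passed with no floor, with a floor at the 60th percentile (where Nfil3 was not tested), with the mean of a gene's features, with only features of 1 symbol as written (where Ciart was not tested) and after cyclic loess over pairs of arrays; the last of these scalings, the symbol rule and base e were added after the data were seen. The count was 0 after median centring, after cyclic loess and with no duration term (4 had an unadjusted p under 0.05 there, 7 in the other 2), and 6 when only protein-coding genes were fitted, where Nr1d1, Nr1d2 and Bhlhe40 also rose and Nfil3 fell. Of the 13 core clock genes 3 passed as reported, 0 after median centring, 0 after cyclic loess, 0 with no duration term, 1 after cyclic loess over pairs of arrays, 2 with no floor, 4 with a floor at the 60th percentile and 5 with protein-coding genes only. Over all genes 264 passed as reported, 8 after median centring, 33 after cyclic loess, 124 after cyclic loess over pairs of arrays, 903 among protein-coding genes and 0 with no duration term. Leaving out each array in turn, in fits without duration, gave counts from 0 to 0 for both lists (and from 0 to 34 over all genes, with 0 without either smoke pool, so these counts say little of the members), with 2 to 5 members at an unadjusted p under 0.05; Dbp ranged from 0.94 to 1.09 and Bhlhe41 from 0.97 to 1.13. In these fits the sign of 4 genes turned: Ciart ranged from -0.051 (without the 4-week smoke pool) to 0.16, Usp2 from -0.40 to 0.081 (without the 4-week control pool), Cry2 from -0.13 to 0.047 (positive without either 4-week pool, 0.0015 without that of smoke), and Fbxl21 from -0.13 to 0.11 (positive without the 2-week control pool or, at 0.011, the 4-week smoke pool). At least 2-fold differences were seen in 1 member at 2 weeks and 1 at 4 weeks, and with base e the 1.5-fold counts were 2 at 2 weeks and 2 at 4 weeks. The cause of these changes was not tested. The duration term already sets each smoke pool against the control of its duration. Beyond it, no paired analysis was possible because each group was 1 pool and the labels give no replicate numbers.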
